A study of Mus musculus with 30 samples.

Results

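Haematopoietic stem cells (HSCs) sorted from mouse bone marrow 10 days after 5-fluorouracil (5-FU) were compared with HSCs of untreated mice. The comparison used 10 of the 30 libraries of the study, taken by their sample titles: 6 day-10 libraries and 4 untreated libraries of the same experiment. All mice were C57BL/6 animals aged 8 to 10 weeks with no genetic change named in the labels, and each library was made from total RNA of 100 bone marrow cells. Day-10 mice had received 5-FU 10 days before the sort, at a dose not given in the sources used here, and untreated mice had not. Per the series' design text, HSCs were gated as positive for CD150 and EPCR and negative for CD48 and lineage markers. Nothing in the labels says whether the libraries of a group came from separate mice, so p-values measure only the spread between libraries, which may be technical.

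5-FU is a pyrimidine analogue that blocks thymidylate synthesis and kills cells in cycle. Most adult HSCs are quiescent and survive it, then divide to rebuild the blood, and later return to rest. Thrombopoietin and TGF-beta signals help to hold HSCs at rest, while interferons and other inflammatory signals can drive them into cycle. The comparison asks how far HSC mRNA still differs from the resting state 10 days after the drug.

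Levels are given as CPM, exon reads scaled to a common library total with edgeR's TMM factors. Changes are log2 fold changes of day 10 over untreated with their standard error (±), and a gene is said to have risen or fallen when its adjusted p from edgeR's quasi-likelihood test was under 0.05. A higher or lower CPM is a share of a library's reads, and fewer cells of a type and less RNA per cell cannot be told apart. The day-10 libraries held 6473824 to 8806027 exon reads and the untreated libraries 5208722 to 6862215. At this depth, a count of 0 allows up to 0.363 to 0.469 CPM in a day-10 library and 0.431 to 0.561 CPM in an untreated library (3 counts, counting error only).

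Of 12886 genes tested, 4893 (38%) passed, 2560 of them higher (19.9%) and 2333 lower (18.1%) at day 10. These 2 shares are the background for the rises and falls counted in each gene list below. At least 2-fold changes made up 505 of the rises and 668 of the falls. For 3039 genes (23.6%) no day-10 library lay within the untreated range or the reverse, with day 10 above for 1525 (11.8%) and below for 1514 (11.7%). Without day-10 replicates 4 and 6, which had the highest erythroid and interferon list means at day 10, 3768 genes passed, of which 3641 were among the 4893 in the same direction.

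The largest rises at day 10 included those of surface, adhesion, interferon and mitosis genes. Genes named here and below for the largest rises or falls were picked among those whose groups did not overlap, so their separation follows from the choice. Selp, the adhesion receptor P-selectin (gene 20344, mm10 chromosome 1, 164115264 to 164150026), had a median of 366 CPM at day 10 (lowest 267, highest 519), against 10.5, 17.4, 29.7 and 24.1 CPM in the untreated libraries. Its log2 change was 4.19 ± 0.27 (adjusted p = 9.08e-08). Cd53, a tetraspanin of leukocytes (gene 12508, mm10 chromosome 3, 106758861 to 106790149), ran from 176 to 322 CPM over the 6 day-10 libraries, with a median of 217, and was at 14.8, 20.7, 24.3 and 12.8 CPM in the 4 untreated libraries. Its log2 change was 3.69 ± 0.24 (adjusted p = 9.72e-08). Both genes separated the groups by a wide gap, with the lowest day-10 library at 267 CPM for Selp and 176 CPM for Cd53. Plac8, a small cysteine-rich protein of immune cells, had a median of 184 CPM at day 10 (lowest 59.2, highest 437), against 28.1, 32.7, 22.2 and 12.2 CPM in the untreated libraries. Plac8 differed widely among the day-10 libraries, yet its lowest value lay above the highest untreated one, and its log2 change was 3.22 ± 0.53 (adjusted p = 0.000269), or 2.48 without day-10 replicates 4 and 6.

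Selp, Cd53 and Plac8 were also higher at day 10 than at day 6 after 5-FU (n = 4), the other time point of the experiment. Day-6 means were 102 ± 17.4 CPM for Selp, 82.0 ± 24.6 CPM for Cd53 and 18.4 ± 6.84 CPM for Plac8. The log2 difference of day 10 minus day 6 was 1.86 (adjusted p = 6.93e-05) for Selp, 1.501 (adjusted p = 0.000153) for Cd53 and 3.57 (adjusted p = 0.00028) for Plac8. Gem, a small GTP-binding protein that acts on the cytoskeleton and on calcium channels, went the other way. It had a median of 242 CPM at day 10 (lowest 69.1, highest 389), against 29.0, 12.5, 23.9 and 21.4 CPM in the untreated libraries, and averaged 713 ± 62.9 CPM at day 6. Its log2 change against untreated was 3.47 ± 0.43 (adjusted p = 3.03e-05), and its log2 difference of day 10 minus day 6 was -1.57 (adjusted p = 0.00359). Gem also differed among the day-10 libraries, with 69.1 CPM in replicate 1 and 389 CPM in replicate 3.

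**Figure D1:**
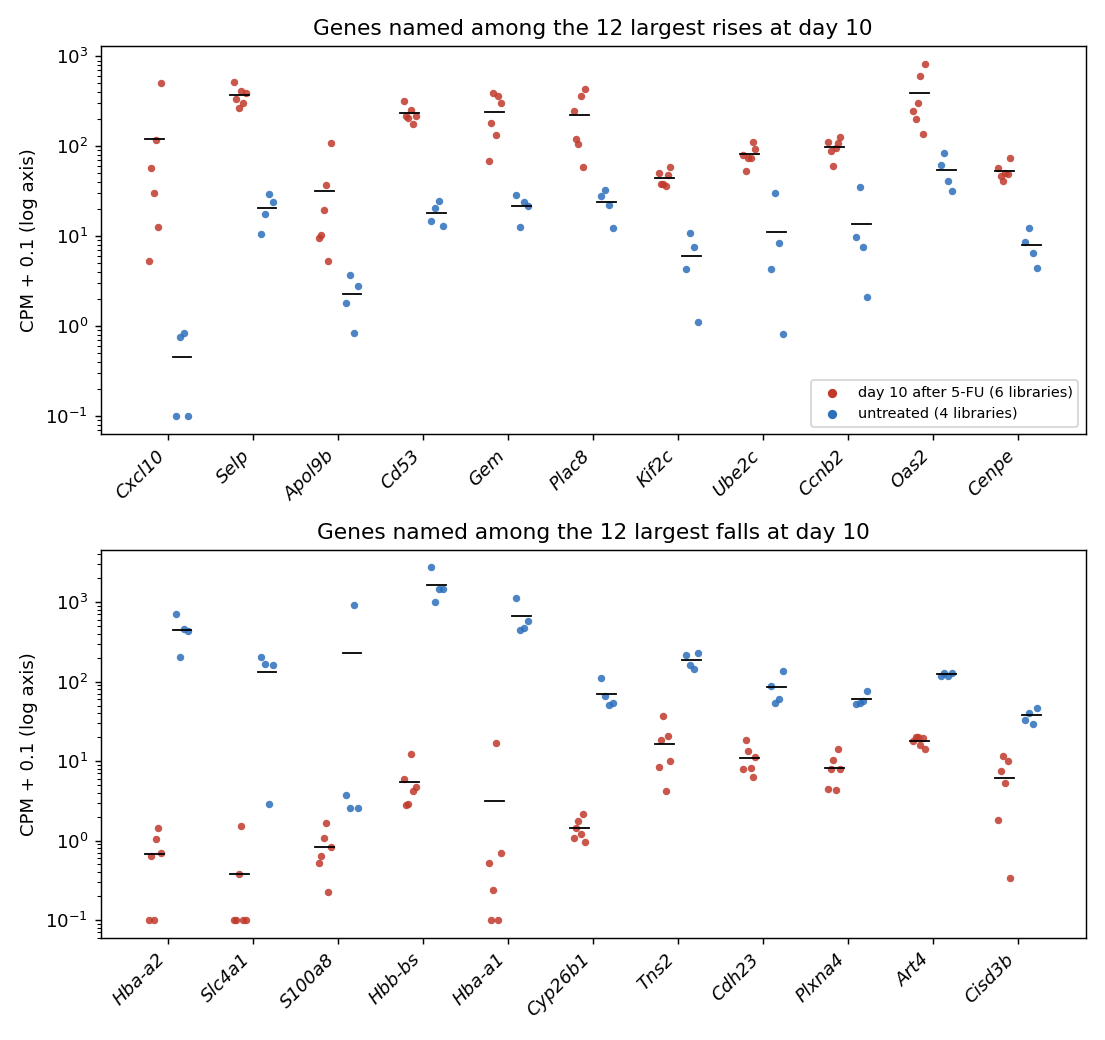
Expression (CPM + 0.1, log axis) of 11 of the 12 genes with the largest rises (top) and 11 of the 12 with the largest falls (bottom) that passed the test and did not overlap between groups. Each point is a library, with the 6 day-10 libraries left of the 4 untreated libraries, and the black line is the group mean; Selp and Cd53 sit closely together within each group, while Cxcl10 spreads from 5.22 to 502 CPM at day 10.

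Genes of the cytoskeleton and of small calcium-binding proteins were more often higher than lower at day 10. Of 40 actin cytoskeleton genes tested 25 rose and 0 fell, and of 15 S100 and annexin genes 8 rose and 2 fell. Vim, the intermediate filament protein vimentin (gene 22352, mm10 chromosome 2, 13574311 to 13582826), ran from 630.4 to 819 CPM over the 6 day-10 libraries, with a median of 721, and was at 232, 242, 248 and 223 CPM in the 4 untreated libraries. The Vim log2 change was 1.60 ± 0.082 (adjusted p = 1.11e-08). Lgals1, the sugar-binding galectin 1, stood at 69.1 CPM in the median of the day-10 libraries, between 52.7 and 79.4, whereas the untreated libraries had 10.6, 11.01, 10.7 and 12.1 CPM. Its log2 change was 2.61 ± 0.19 (adjusted p = 3.7e-07). Cfl1, the actin-severing protein cofilin, had a median of 966 CPM at day 10 (lowest 842, highest 980.2), against 482, 487, 508 and 518 CPM in the untreated libraries. This was a log2 change of 0.91 ± 0.056 (adjusted p = 8.05e-08). Every day-10 library exceeded every untreated one for these 3 genes, which were named for their clear separation. Actb, cytoplasmic actin, ran from 6014 to 6725 CPM over the 6 day-10 libraries, with a median of 6268, and was at 4289, 4463, 5202 and 4854 CPM in the 4 untreated libraries, a smaller log2 change of 0.42 ± 0.057 (adjusted p = 5.85e-05). In intron reads, Cfl1 and Actb pointed the other way, with log2 changes of -0.17 (adjusted p = 0.576) and -1.39 (adjusted p = 0.000837). S100a4 and S100a6, calcium-binding proteins, had log2 changes of 2.37 ± 0.32 (adjusted p = 6.67e-05) and 1.43 ± 0.27 (adjusted p = 0.000735). S100a4 ran from 7.63 to 20.5 CPM at day 10, against 2.19, 2.63, 1.12 and 2.87 CPM in untreated libraries.

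The largest falls outside the globin genes included those of surface and retinoid genes. Art4, an ADP-ribosyltransferase that carries the Dombrock blood group antigen in humans (gene 109978, mm10 chromosome 6, 136848451 to 136857600), had a median of 18.8 CPM at day 10 (lowest 14.2, highest 20.2), against 119, 129, 119 and 130.1 CPM in the untreated libraries. It had the smallest p of all genes tested, with a log2 change of -2.79 ± 0.11 (adjusted p = 2.97e-10). Cyp26b1, which degrades retinoic acid (gene 232174, mm10 chromosome 6, 84571414 to 84593908), ran from 0.848 to 2.08 CPM over the 6 day-10 libraries, with a median of 1.22, and was at 112, 64.9, 50.5 and 52.98 CPM in the 4 untreated libraries. The Cyp26b1 log2 change was -5.69 ± 0.34 (adjusted p = 6.85e-08). All 6 day-10 libraries lay far below the untreated ones for both genes, and Cyp26b1 was also lower at day 10 than at day 6, where it averaged 7.14 ± 3.55 CPM. Its log2 difference of day 10 minus day 6 was -2.40 (adjusted p = 0.000358). Tns2, a focal adhesion protein, had a median of 14.1 CPM at day 10 (lowest 4.06, highest 37.3), against 218, 162, 143 and 227 CPM in the untreated libraries. This was a log2 change of -3.51 ± 0.38 (adjusted p = 9.28e-06). Plxna4, a semaphorin receptor, had a log2 change of -2.89 ± 0.25 (adjusted p = 2.1e-06), Cdh23, a cadherin, one of -2.98 ± 0.32 (adjusted p = 8.54e-06), and Cisd3b one of -2.63 ± 0.52 (adjusted p = 0.00113).

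Of 10 retinoid genes tested 6 fell and 2 rose. Rarb, the retinoic acid receptor beta, ran from 4.94 to 10.0 CPM over the 6 day-10 libraries, with a median of 7.61, and was at 17.02, 15.6, 19.4 and 27.4 CPM in the 4 untreated libraries. The Rarb log2 change was -1.44 ± 0.22 (adjusted p = 0.000136). The groups did not overlap for Rarb, and the retinoid list averaged 3.96 to 4.60 log2 CPM in the day-10 libraries and 5.20 to 5.25 in the untreated libraries.

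The genes of the gate and other HSC markers differed in both directions. Slamf1, which encodes CD150, had a median of 50.5 CPM at day 10 (lowest 45.3, highest 55.6), against 26.9, 35.5, 28.6 and 35.8 CPM in the untreated libraries. Its log2 change was 0.66 ± 0.12 (adjusted p = 0.000518). Procr, which encodes EPCR, ran from 47.0 to 91.9 CPM over the 6 day-10 libraries, with a median of 77.0, and was at 78.8, 75.4, 64.9 and 78.7 CPM in the 4 untreated libraries, with overlapping groups and a log2 change of -0.036 ± 0.15 (adjusted p = 0.876). Cd48, the gene of the antigen that the gate excludes, stood at 3.60 CPM in the median of the day-10 libraries, between 2.06 and 6.10, whereas the untreated libraries had 0.624, 0.164, 0.935 and 0 CPM. This was a log2 change of 3.12 ± 0.64 (adjusted p = 0.00142). Cd48 stayed low in CPM, but every day-10 library was above every untreated one. Kit, the stem cell factor receptor, had a median of 686 CPM at day 10 (lowest 500.2, highest 755), against 1072, 1279, 1488 and 1264 CPM in the untreated libraries. The Kit log2 change was -0.97 ± 0.12 (adjusted p = 2.33e-05). Ly6a, which encodes Sca-1, had 269, 163, 222, 343, 216 and 900.4 CPM in day-10 replicates 1 to 6, against 82.0, 94.2, 75.5 and 86.0 CPM in untreated replicates 1 to 4. Every day-10 library exceeded the untreated ones for Ly6a, replicate 6 by the most, and the log2 change was 2.06 ± 0.39 (adjusted p = 0.000761), or 1.36 without day-10 replicates 4 and 6. The log2 change of Cd48 was 3.76 without untreated replicate 3.

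Of 38 HSC transcription factors 14 fell (36.8%) and 3 rose (7.89%). Of 42 HSC marker genes 16 fell (38.1%) and 10 rose (23.8%), where 18.1% of all genes fell and 19.9% rose. Hlf, a transcription factor that marks HSCs, ran from 414 to 810.2 CPM over the 6 day-10 libraries, with a median of 681, and was at 1329, 1139, 1396 and 1326 CPM in the 4 untreated libraries. The Hlf log2 change was -1.04 ± 0.16 (adjusted p = 0.00015). Mecom, which encodes EVI1, stood at 449.6 CPM in the median of the day-10 libraries, between 425 and 562, whereas the untreated libraries had 433, 456, 503 and 513 CPM, and did not pass the test (log2 change -0.00019, adjusted p = 0.999). Spi1, the myeloid and lymphoid factor PU.1, had a median of 78.0 CPM at day 10 (lowest 73.3, highest 82.8), against 50.4, 44.7, 48.8 and 45.9 CPM in the untreated libraries. The Spi1 log2 change was 0.72 ± 0.087 (adjusted p = 2.58e-05). Hlf was lower in all 6 day-10 libraries and Spi1 higher in all 6, while Mecom overlapped. In intron reads Spi1 had a log2 change of -0.024 (adjusted p = 0.905). Egr1, an immediate early factor counted among HSC regulators, had a log2 change of -2.07 ± 0.30 (adjusted p = 0.000102). Sult1a1, a sulfotransferase gene in the marker list, had a log2 change of -1.47 ± 0.28 (adjusted p = 0.000756).

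Mmrn1, a protein of platelet granules that HSCs share with megakaryocytes, ran from 61.4 to 114 CPM over the 6 day-10 libraries, with a median of 84.6, and was at 302, 330.2, 345 and 368 CPM in the 4 untreated libraries. The Mmrn1 log2 change was -1.97 ± 0.14 (adjusted p = 3.16e-07). Vwf, von Willebrand factor, instead rose, with overlapping groups. It stood at 886 CPM in the median of the day-10 libraries, between 577 and 1244, whereas the untreated libraries had 507, 585, 497 and 591 CPM. The Vwf log2 change was 0.71 ± 0.16 (adjusted p = 0.00325). Of 25 megakaryocyte and platelet markers 12 fell and 3 rose, the 3 being Selp, Vwf and Fermt3, and their summed level was 2456 to 3042 CPM at day 10, against 3581 to 3749 CPM in untreated libraries.

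Every one of the 42 mitosis genes tested rose at day 10, against 19.9% of all genes, and 38 of them did not overlap between groups, against 11.8% of all genes. The promoters of 2 members, those with the smallest p among those that hold a cell cycle genes homology region, an element through which mitosis genes are repressed in resting cells, show where that element sits. They are from RefSeq on GRCm38.p6, run 5′ to 3′ in the direction of the gene from 250 bases before to 50 bases after the start, and have the element (TTTGAA) in capitals. Cenpa lies on the plus strand at chr5:30666636-30666935 and Aurka on the minus strand at chr2:172370521-172370820.
Cenpa: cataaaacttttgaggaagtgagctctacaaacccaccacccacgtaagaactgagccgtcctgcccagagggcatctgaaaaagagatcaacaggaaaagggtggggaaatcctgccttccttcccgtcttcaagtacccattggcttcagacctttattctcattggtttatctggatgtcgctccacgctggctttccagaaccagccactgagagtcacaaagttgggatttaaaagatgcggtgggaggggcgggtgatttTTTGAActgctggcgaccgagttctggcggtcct
Aurka: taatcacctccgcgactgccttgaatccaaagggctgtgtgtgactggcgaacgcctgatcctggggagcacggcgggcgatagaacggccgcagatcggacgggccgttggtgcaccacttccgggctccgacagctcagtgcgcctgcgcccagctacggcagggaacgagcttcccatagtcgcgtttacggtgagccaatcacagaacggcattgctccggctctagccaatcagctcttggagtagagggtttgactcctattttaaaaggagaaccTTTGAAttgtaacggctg
Of the 35 list members with a promoter in the RefSeq table, 27 (77.1%) held TTTGAA on either strand and 29 (82.9%) the CCAAT box (CCAAT), against 18.1% and 37.9% of all 27025 promoters of this length. The 27 members with TTTGAA and the 8 without it all rose, with median log2 changes of 2.01 and 1.67. These are matches of letters and not sites of binding.

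Cenpe, a kinesin that moves chromosomes in mitosis (gene 229841, mm10 chromosome 3, 135212537 to 135273540), had a median of 49.99 CPM at day 10 (lowest 41.5, highest 74.1), against 8.43, 12.3, 6.36 and 4.31 CPM in the untreated libraries. The Cenpe log2 change was 2.76 ± 0.24 (adjusted p = 2.01e-06). Kif2c, a kinesin that depolymerises microtubules, ran from 36.1 to 58.3 CPM over the 6 day-10 libraries, with a median of 42.9, and was at 4.21, 10.8, 7.48 and 1.005 CPM in the 4 untreated libraries, a log2 change of 2.95 ± 0.37 (adjusted p = 3.09e-05). Ccnb2, a mitotic cyclin, stood at 102 CPM in the median of the day-10 libraries, between 60.3 and 127, whereas the untreated libraries had 9.83, 35.5, 7.48 and 2.01 CPM, a log2 change of 2.86 ± 0.47 (adjusted p = 0.000285), or 3.96 without untreated replicate 2. All 3 were higher in every day-10 library, and untreated replicate 2 was the highest of its group for each of them. Ube2c, the ubiquitin-conjugating enzyme of the anaphase-promoting complex, had a log2 change of 2.91 ± 0.56 (adjusted p = 0.000907), or 4.28 without that library. Cenpa, the centromeric histone, had 71.6 ± 8.25 CPM at day 10 (SD, n = 6) and 13.9 ± 5.58 CPM in untreated HSCs (n = 4), a log2 change of 2.37 ± 0.22 (adjusted p = 3.19e-06). Aurka, a mitotic kinase named for its promoter, had 36.2 ± 5.64 CPM at day 10 (SD, n = 6) and 9.70 ± 3.12 CPM in untreated HSCs (n = 4), a log2 change of 1.90 ± 0.19 (adjusted p = 6.41e-06). The mitosis list averaged 5.52 to 6.21 log2 CPM in the day-10 libraries and 2.83 to 4.85 in the untreated ones. Its members varied less among day-10 libraries than among untreated ones, with a median SD of log2 CPM of 0.272 and 0.757, where all genes had 0.221 and 0.205. These all-gene values are not matched for level: the medians were 0.520 and 0.511 under 10 CPM, and 0.171 and 0.163 at 32 to 100 CPM. Untreated replicate 2 had the highest list mean of its group, 4.85. The part of level and of that library in the difference was not tested.

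DNA replication genes rose in 34 of 43 cases and fell in 0, by less than mitosis genes, with median log2 changes of 0.55 and 1.93. Rrm1, a subunit of ribonucleotide reductase, had a median of 188 CPM at day 10 (lowest 147, highest 223), against 91.2, 113, 90.3 and 69.2 CPM in the untreated libraries, a log2 change of 1.07 ± 0.13 (adjusted p = 3.32e-05). Mcm5, a subunit of the replication helicase, ran from 249 to 421 CPM over the 6 day-10 libraries, with a median of 361, and was at 165, 192, 166 and 162 CPM in the 4 untreated libraries, a log2 change of 1.00 ± 0.14 (adjusted p = 7.51e-05). Tyms, thymidylate synthase and a target of 5-FU, stood at 67.1 CPM in the median of the day-10 libraries, between 47.998 and 78.5, whereas the untreated libraries had 49.95, 56.7, 35.0 and 27.3 CPM, a log2 change of 0.66 ± 0.19 (adjusted p = 0.0122) with overlapping groups. Rrm1 and Mcm5 were thus higher than in any untreated library, and all 3 were lower than at day 6. Day-6 means were 343 ± 27.6 CPM for Rrm1, 600.4 ± 85.2 CPM for Mcm5 and 118 ± 21.6 CPM for Tyms, and day 10 minus day 6 was -0.85 (adjusted p = 0.000248), -0.81 (adjusted p = 0.000501) and -0.81 (adjusted p = 0.00341) on the log2 scale. Against day 6, 40 of the 43 DNA replication genes were lower at day 10 (background 15.9% lower), and 5 of the 42 mitosis genes were. Mki67, a marker of cycling cells, had a median of 419.9 CPM at day 10 (lowest 399, highest 508), against 172, 269.9, 139.6 and 90.3 CPM in the untreated libraries, a log2 change of 1.40 ± 0.21 (adjusted p = 0.000121).

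Of 23 cyclins and CDK inhibitors 8 rose (34.8%) and 4 fell (17.4%, near the 18.1% of all genes). Cdk6, a G1 kinase, ran from 696 to 2288 CPM over the 6 day-10 libraries, with a median of 928, and was at 409, 517, 411 and 436 CPM in the 4 untreated libraries. Day-10 replicate 1 had the most, all 6 day-10 libraries exceeded the untreated ones, and the log2 change was 1.36 ± 0.28 (adjusted p = 0.00135). Cdk6 averaged 438 ± 36.6 CPM at day 6, with a log2 difference of day 10 minus day 6 of 1.38 (adjusted p = 0.00197). Cdk4, the related kinase, had a log2 change of 0.80 ± 0.10 (adjusted p = 2.63e-05), and E2f7, a repressor of the E2F family, one of 1.56 ± 0.27 (adjusted p = 0.000435). Ccnd2, cyclin D2, stood at 440.4 CPM in the median of the day-10 libraries, between 276 and 528, whereas the untreated libraries had 866, 861, 974 and 998 CPM, a log2 change of -1.15 ± 0.15 (adjusted p = 3.87e-05). Cdkn1c, the inhibitor p57 that holds HSCs at rest, had a median of 10.95 CPM at day 10 (lowest 6.20, highest 15.6), against 31.2, 30.9, 28.4 and 39.3 CPM in the untreated libraries, a log2 change of -1.55 ± 0.23 (adjusted p = 0.000136). Both were lower in every day-10 library and were named after their values were seen. Cdkn1a, the inhibitor p21, ran from 7.24 to 28.6 CPM over the 6 day-10 libraries, with a median of 11.3, and was at 11.4, 3.45, 7.85 and 4.59 CPM in the 4 untreated libraries. Its log2 change of 1.06 ± 0.42 (adjusted p = 0.0548) missed the threshold, which it passed without untreated replicate 1 or day-10 replicate 2 (adjusted p = 0.0265 and 0.0296).

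Mitochondrial, proteasome and chaperone genes were higher at day 10, with median log2 changes of 0.57, 0.55 and 0.61 over the 3 lists. Of 76 oxidative phosphorylation genes 64 rose and 0 fell, 58 did not overlap between groups (background 11.8% for higher), and 52 of the 76 were lower than at day 6 (background 15.9% lower). Atp5b, the catalytic subunit of ATP synthase, had a median of 602 CPM at day 10 (lowest 518, highest 697), against 361, 365, 343 and 368 CPM in the untreated libraries, a log2 change of 0.74 ± 0.078 (adjusted p = 8.84e-06). Ndufa4, a respiratory chain subunit, ran from 127 to 161 CPM over the 6 day-10 libraries, with a median of 146, and was at 82.1, 86.8, 87.9 and 80.3 CPM in the 4 untreated libraries, a log2 change of 0.79 ± 0.074 (adjusted p = 3.24e-06). Of 31 proteasome genes 29 rose and 0 fell, led by Psmd8 with a log2 change of 0.72 ± 0.078 (adjusted p = 1.14e-05) and Psmb5 with 0.91 ± 0.12 (adjusted p = 4.74e-05). Of 24 heat shock and chaperone genes 19 rose and 0 fell. Cct2 and Cct3, subunits of the chaperonin that folds actin and tubulin, had log2 changes of 0.61 ± 0.088 (adjusted p = 0.00011) and 0.76 ± 0.13 (adjusted p = 0.000425), and Hspa8, the constitutive HSC70, one of 0.79 ± 0.16 (adjusted p = 0.00125). In intron reads Atp5b, Ndufa4 and Hspa8 did not pass (log2 change -0.039, -0.042 and -0.40).

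Among 26 glycolysis and lactate genes 11 rose and 4 fell, and among 18 serine and folate one-carbon genes 11 rose and 0 fell. Ldha, lactate dehydrogenase, stood at 904 CPM in the median of the day-10 libraries, between 822 and 1006, whereas the untreated libraries had 391.98, 490.4, 447 and 519.8 CPM, a log2 change of 0.96 ± 0.077 (adjusted p = 8.23e-07). Pgk1, a glycolytic kinase, had a log2 change of 0.61 ± 0.08 (adjusted p = 4.91e-05) that did not pass in unique exon reads (adjusted p = 0.0613). Mthfd2, the mitochondrial folate enzyme, had a median of 19.5 CPM at day 10 (lowest 8.85, highest 35.0), against 4.53, 7.23, 4.11 and 3.59 CPM in the untreated libraries, a log2 change of 2.15 ± 0.34 (adjusted p = 0.000225). Paics, an enzyme of purine synthesis, ran from 179.6 to 255 CPM over the 6 day-10 libraries, with a median of 212, and was at 133, 136, 134 and 138 CPM in the 4 untreated libraries, a log2 change of 0.65 ± 0.086 (adjusted p = 4.98e-05). All day-10 libraries lay above the untreated ones for Ldha, Mthfd2 and Paics. The ATF4 and unfolded protein response list had 17 rises and 4 falls among 37 genes. Aars, alanyl-tRNA synthetase, had a log2 change of 1.14 ± 0.19 (adjusted p = 0.000269). Of 32 NRF2 and antioxidant genes 11 rose and 3 fell. Txn1, thioredoxin, stood at 124 CPM in the median of the day-10 libraries, between 104.98 and 176, whereas the untreated libraries had 48.1, 51.6, 53.8 and 66.6 CPM, a log2 change of 1.23 ± 0.13 (adjusted p = 8.26e-06), and Taldo1, a pentose phosphate enzyme, had one of 0.63 ± 0.10 (adjusted p = 0.000151).

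Lipid gene lists had shares nearer the background. Of 32 fatty acid and acetyl-CoA genes 8 rose and 4 fell, with Elovl5, a fatty acid elongase, at a log2 change of 0.64 ± 0.11 (adjusted p = 0.000438). Of 28 cholesterol genes 2 rose and 5 fell, and leaving out 1 library moved the 5 to between 0 (without untreated replicate 4) and 8 (without untreated replicate 1 or day-10 replicate 3). The 8 fatty acid rises were 5 without untreated replicate 3. Of 29 p53 targets 6 rose (20.7%) and 7 fell (24.1%), where 19.9% of all genes rose and 18.1% fell. The 7 falls were 4 without untreated replicate 4. Rrm2b, the p53-induced ribonucleotide reductase subunit, had a median of 15.4 CPM at day 10 (lowest 11.9, highest 20.6), against 29.0, 30.4, 36.8 and 32.6 CPM in the untreated libraries, a log2 change of -1.03 ± 0.14 (adjusted p = 7.47e-05) with no overlap.

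**Figure D2:**
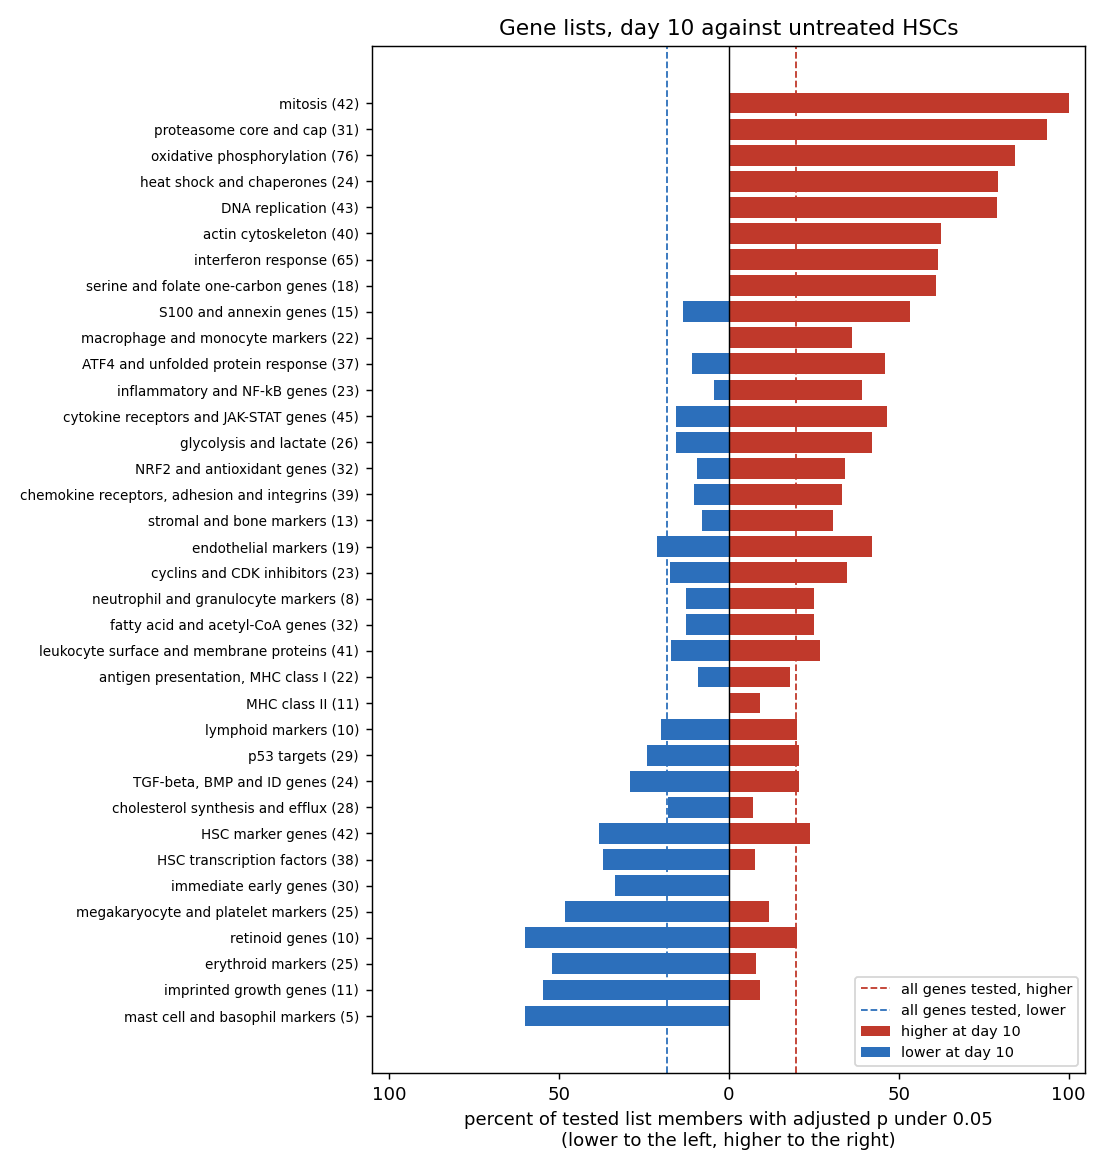
Share of tested members of each gene list (number tested in brackets) that were higher (right) or lower (left) at day 10 than in untreated HSCs at an adjusted p under 0.05, with dashed lines at the share of all 12886 genes. The mitosis list reaches 42 of 42 higher, and the retinoid, imprinted and erythroid lists lean to the lower side.

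Interferon response genes rose in 40 of 65 cases and fell in 0, with a median log2 change of 1.35, and a median SD of 1.02 log2 units among the day-10 libraries, against 0.221 among the untreated ones. Interferons act through STAT and IRF factors, which bind the interferon-stimulated response element. The promoters of the 2 members with the smallest p that hold the core of that element (GAAANNGAAA) are shown as above, with the core in capitals. Cxcl10 lies on the minus strand at chr5:92348840-92349139 and Oas3 on the minus strand at chr5:120777610-120777909.
Cxcl10: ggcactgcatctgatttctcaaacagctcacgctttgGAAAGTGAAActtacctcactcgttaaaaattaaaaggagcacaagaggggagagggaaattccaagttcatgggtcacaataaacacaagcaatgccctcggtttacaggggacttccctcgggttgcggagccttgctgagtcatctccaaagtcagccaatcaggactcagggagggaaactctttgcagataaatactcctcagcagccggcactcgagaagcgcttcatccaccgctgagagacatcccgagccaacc
Oas3: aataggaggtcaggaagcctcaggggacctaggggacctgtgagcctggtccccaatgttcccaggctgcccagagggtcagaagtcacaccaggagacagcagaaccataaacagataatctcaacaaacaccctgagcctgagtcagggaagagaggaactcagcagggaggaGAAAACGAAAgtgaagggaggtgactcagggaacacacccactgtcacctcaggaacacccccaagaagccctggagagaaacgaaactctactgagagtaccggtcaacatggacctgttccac
Of the 50 list members with a promoter in the table, 29 (58%) held the core on either strand, against 3.49% of all promoters and 8.57% of the mitosis list. A TTTGAA match can share its last 3 letters with the start of this core, and the counts of each motif were made separately. The AP-1 letters (TGANTCA) were in 26% of the interferon list, 0% of the mitosis list and 7.93% of all promoters. Of the 29 members with the core 18 rose, with a median log2 change of 1.52, and of the 21 without it 13 rose, with a median of 0.96.

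Cxcl10, a chemokine induced by interferon (gene 15945, mm10 chromosome 5, 92346638 to 92348889), had 5.22, 57.0, 30.3, 119, 12.5 and 502 CPM in day-10 replicates 1 to 6, against 0, 0.657, 0.748 and 0 CPM in untreated replicates 1 to 4. Its day-10 values spanned from 5.22 to 502 CPM while no untreated library reached 1 CPM, and the log2 change of 8.47 ± 1.62 (adjusted p = 0.000872) was 7.03 without day-10 replicate 6 and 9.08 without untreated replicate 3. Oas2, an antiviral sensor of double-stranded RNA (gene 246728, mm10 chromosome 5, 120730333 to 120749874), had 247, 203, 304, 609, 136 and 833 CPM in day-10 replicates 1 to 6, against 61.7, 83.5, 40.7 and 32.02 CPM in untreated replicates 1 to 4. All day-10 libraries exceeded the untreated ones, replicates 6 and 4 by the most, and the log2 change was 2.83 ± 0.47 (adjusted p = 0.000276), or 2.02 without those 2. Oas3, a relative of Oas2 named for its promoter, had a log2 change of 2.27 ± 0.50 (adjusted p = 0.00252), or 1.62 without replicate 6. Apol9b had a log2 change of 3.83 ± 0.86 (adjusted p = 0.00284), which was 2.87 without replicate 6. Ifi27l2a, an interferon-induced membrane protein, had a median of 11.4 CPM at day 10 (lowest 7.48, highest 35.0), against 1.25, 2.79, 2.06 and 2.44 CPM in the untreated libraries, a log2 change of 2.83 ± 0.49 (adjusted p = 0.000438). Its highest day-10 value was that of replicate 4, with 17.3 CPM in replicate 6. Irf7, the factor that amplifies type I interferon and named after its values were seen, had 53.02, 57.4, 97.3, 166, 44.98 and 382 CPM in day-10 replicates 1 to 6, against 29.3, 41.6, 23.4 and 22.4 CPM in untreated replicates 1 to 4. The Irf7 log2 change was 2.19 ± 0.55 (adjusted p = 0.00601), or 1.52 without replicate 6.

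Several more interferon genes were highest in replicate 6, and some of them also exceeded the untreated range in other day-10 libraries. Gbp2, Gbp5 and Igtp were named because replicate 6 stood apart for them. Gbp2, a guanylate-binding protein, had 48.5, 70.9, 109, 94.2, 97.3 and 1078 CPM in day-10 replicates 1 to 6, against 92.6, 83.8, 72.3 and 77.0 CPM in untreated replicates 1 to 4. Gbp5 had 1088 CPM and Igtp, an immunity-related GTPase, 1037 CPM in replicate 6, while the other 5 day-10 libraries had at most 140.2 and 175 CPM, against 89.4, 69.5, 77.0 and 75.8 CPM for Gbp5 and 105.2, 82.5, 80.9 and 83.0 CPM for Igtp in untreated libraries. Gbp2 did not pass (log2 change 1.62 ± 0.74, adjusted p = 0.0968) and Gbp5 just missed the threshold (1.79 ± 0.68, adjusted p = 0.0502), which it passed when any of day-10 replicates 1 to 5 was left out (adjusted p = 0.0282 to 0.0446). Igtp passed narrowly, at 1.65 ± 0.63 (adjusted p = 0.0495), and was at 0.48 (adjusted p = 0.0959) without replicate 6 and did not pass without any 1 of the untreated libraries (adjusted p = 0.081 to 0.105). Zbp1, a nucleic acid sensor, had a log2 change of 2.50 ± 0.81 (adjusted p = 0.0246), or of 1.06 (adjusted p = 0.0389) without replicate 6, and did not pass when any untreated library was left out (adjusted p = 0.0505 to 0.0672). Ifitm3, the member with the highest CPM, had 728, 487, 522, 960.0, 494 and 1806 CPM in day-10 replicates 1 to 6, against 404, 492, 403 and 428 CPM in untreated replicates 1 to 4. Its log2 change of 0.95 ± 0.30 (adjusted p = 0.0225) did not pass without untreated replicate 1, 3 or 4 (adjusted p = 0.053 to 0.0592).

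Averaged over the list, interferon genes were at 5.33, 5.89, 6.42, 6.63, 5.49 and 8.17 log2 CPM in day-10 replicates 1 to 6, against 5.17 to 5.37 in the untreated libraries. Replicate 1 thus lay just inside the untreated range and replicate 5 just above it. The 40 called members became 19, 21 and 25 when untreated replicates 1, 3 and 4 were left out, and 23 without day-10 replicates 4 and 6. With the 2 groups alone in the fit, 26 passed. Against day 6, 53 of the 65 members were higher at day 10 (background 14.7% higher), and Oas2, which averaged 36.0 ± 6.57 CPM at day 6, had a log2 difference of day 10 minus day 6 of 3.43 (adjusted p = 0.000182). Of 22 MHC class I genes 4 rose (18.2%) and 2 fell (9.09%), where 19.9% of all genes rose and 18.1% fell. Of 11 MHC class II genes 1 rose (9.09%) and 0 fell. Without untreated replicate 1, 2, 3 or 4 the 4 class I rises were 1, 2, 1 and 2, and the class II rise, that of Ctss, was lost without replicate 1 or 3. The class I list averaged 8.66 log2 CPM in replicate 6 and 7.34 to 7.87 in the other day-10 libraries, against 7.51 to 7.65 in untreated HSCs. Cd74, the class II invariant chain, had 164, 64.6, 202, 481, 81.9 and 999.8 CPM in day-10 replicates 1 to 6, against 194, 140.4, 162 and 226 CPM in untreated replicates 1 to 4 and did not pass (adjusted p = 0.31). Psme2, a subunit of the proteasome activator that interferon induces, had a log2 change of 0.93 ± 0.30 (adjusted p = 0.0224) that did not pass without untreated replicate 1 or 3 (adjusted p = 0.0619 and 0.0647), and the same held for Ctss, a lysosomal protease (1.82 ± 0.58, adjusted p = 0.0218, or 0.0523 and 0.064 without those libraries).

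**Figure D3:**
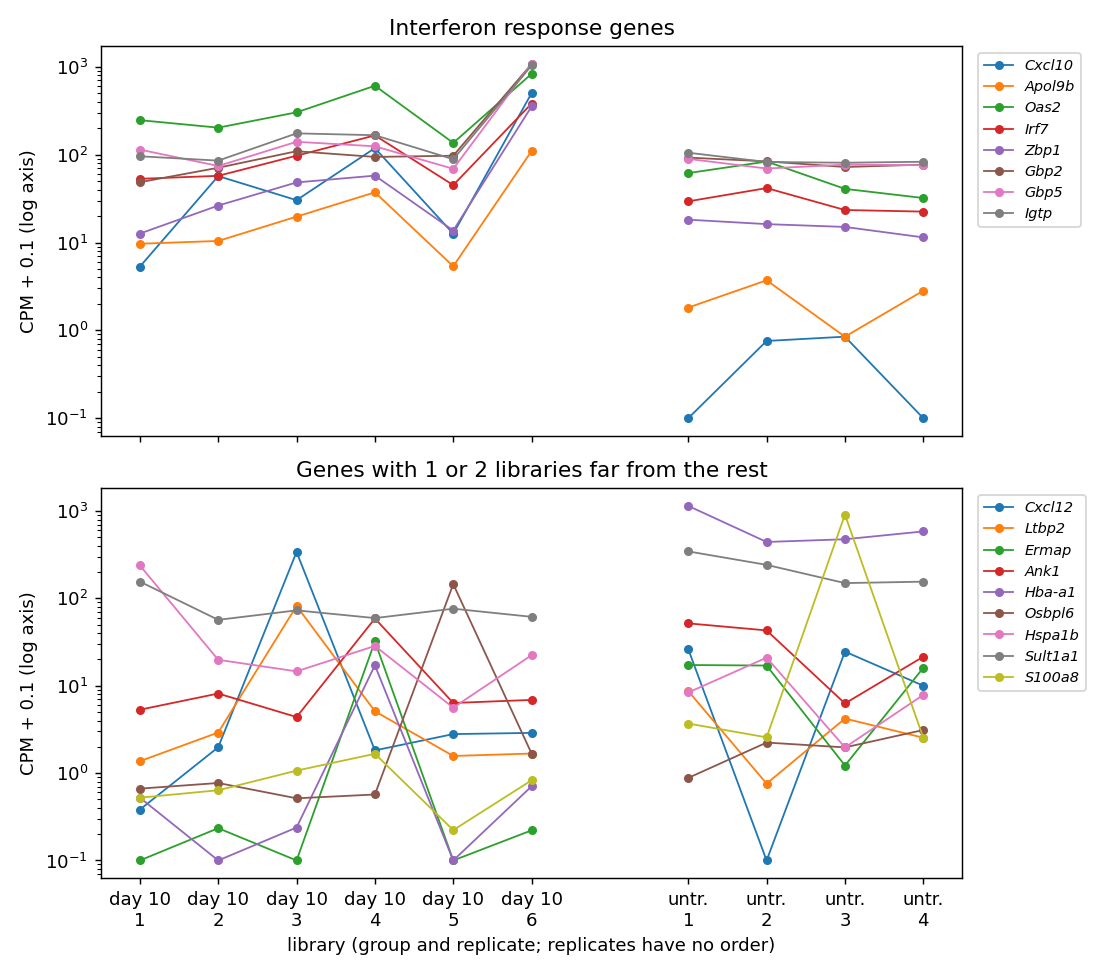
CPM + 0.1 (log axis) of 8 interferon response genes (top) and of 9 genes with 1 or 2 libraries far from the rest (bottom) in day-10 replicates 1 to 6 and untreated replicates 1 to 4; lines only join the points of a gene. Replicate 6 is highest for all 8 interferon genes, with Gbp2 at 1078 CPM, while Cxcl12 peaks at 340 CPM in day-10 replicate 3 and S100a8 at 911 CPM in untreated replicate 3. Gbp2, Gbp5 and Igtp were chosen because replicate 6 stood apart for them, and Zbp1 and Cxcl10 were among the genes of widest spread. Ifi27l2a, which is not drawn, was highest in replicate 4.

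Of 45 cytokine receptor and JAK-STAT genes 21 rose and 7 fell. Il2rg, the common gamma chain, had a median of 217 CPM at day 10 (lowest 188, highest 346), against 105.2, 95.3, 78.9 and 100.4 CPM in the untreated libraries, a log2 change of 1.33 ± 0.16 (adjusted p = 2.18e-05). Ifngr2, a subunit of the interferon gamma receptor, ran from 58.9 to 74.1 CPM over the 6 day-10 libraries, with a median of 63.7, and was at 30.4, 25.0, 32.9 and 32.2 CPM in the 4 untreated libraries, a log2 change of 1.12 ± 0.11 (adjusted p = 3.62e-06). Both were higher in every day-10 library. Feedback inhibitors of cytokine signalling moved in opposite directions, and the pair was chosen after its values were seen. Socs3, which restrains STAT3 signalling, stood at 57.2 CPM in the median of the day-10 libraries, between 38.5 and 131, whereas the untreated libraries had 26.1, 8.88, 9.35 and 7.90 CPM, a log2 change of 2.42 ± 0.38 (adjusted p = 0.000204), or 3.01 without untreated replicate 1. Cish, a STAT5 target, had a median of 55.1 CPM at day 10 (lowest 44.5, highest 74.1), against 178, 200.2, 141 and 108 CPM in the untreated libraries, a log2 change of -1.43 ± 0.18 (adjusted p = 4.07e-05). At day 6 Socs3 averaged 6.09 ± 1.55 CPM and Cish 185 ± 45.9 CPM, so that day 10 minus day 6 was 3.52 (adjusted p = 5.55e-05) for Socs3 and -1.68 (adjusted p = 3.11e-05) for Cish.

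Of 23 inflammatory and NF-kB genes 9 rose and 1 fell. Bcl3, a nuclear partner of NF-kB, ran from 38.7 to 100.0 CPM over the 6 day-10 libraries, with a median of 62.6, and was at 15.9, 23.2, 15.0 and 18.2 CPM in the 4 untreated libraries, a log2 change of 1.86 ± 0.25 (adjusted p = 5.53e-05), and was also higher than at day 6, where it averaged 21.03 ± 1.42 CPM, with a log2 difference of 1.64 (adjusted p = 0.000251). Nfkb1, an NF-kB subunit, stood at 387 CPM in the median of the day-10 libraries, between 368 and 424, whereas the untreated libraries had 287, 251.3, 254 and 285 CPM, a log2 change of 0.54 ± 0.069 (adjusted p = 4.42e-05). Of 39 chemokine receptor, adhesion and integrin genes 13 rose and 4 fell, and of 41 leukocyte surface genes 11 rose and 7 fell (26.8% and 17.1%, against 19.9% and 18.1% of all genes). Ms4a6c, a membrane protein of myeloid cells, had a median of 67.1 CPM at day 10 (lowest 45.5, highest 153), against 14.1, 13.5, 10.1 and 11.6 CPM in the untreated libraries, a log2 change of 2.69 ± 0.36 (adjusted p = 5.92e-05). The groups of Bcl3, Nfkb1 and Ms4a6c did not overlap.

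Among 30 immediate early genes 10 fell and 0 rose, while 24 were higher at day 10 than at day 6 (background 14.7% higher). Ier2 ran from 62.3 to 138 CPM over the 6 day-10 libraries, with a median of 92.2, and was at 345, 222, 300.4 and 214 CPM in the 4 untreated libraries, a log2 change of -1.57 ± 0.20 (adjusted p = 3.3e-05). Dusp2, a phosphatase of MAP kinases, had a log2 change of -1.55 ± 0.21 (adjusted p = 6.33e-05). Egr1 had a median of 288 CPM at day 10 (lowest 158, highest 423), against 1471, 604, 1556 and 1061 CPM in the untreated libraries, and averaged 103 ± 34.4 CPM at day 6, a log2 difference of day 10 minus day 6 of 1.44 (adjusted p = 0.00371). Fos had 379, 441, 662, 526, 473 and 386 CPM in day-10 replicates 1 to 6, against 1199, 476, 708 and 1731 CPM in untreated replicates 1 to 4, a log2 change of -1.11 ± 0.30 (adjusted p = 0.00941) that did not pass without untreated replicate 4 (-0.74, adjusted p = 0.0606), and averaged 147 ± 56.2 CPM at day 6 with a log2 difference of day 10 minus day 6 of 1.70 (adjusted p = 0.0015). The day-10 values of Ier2 and Egr1 thus lay below the untreated ones and above the day-6 mean of each gene.

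Of 24 TGF-beta, BMP and ID genes 5 rose (20.8%, near the 19.9% of all genes) and 7 fell (29.2%, against 18.1%). Ltbp3, which stores latent TGF-beta, stood at 95.5 CPM in the median of the day-10 libraries, between 60.8 and 126, whereas the untreated libraries had 297, 247, 292 and 301 CPM, a log2 change of -1.59 ± 0.15 (adjusted p = 3.16e-06). Eng, the co-receptor endoglin, had a log2 change of -0.45 ± 0.063 (adjusted p = 7.44e-05), and Tgfbr3, the co-receptor betaglycan, one of 0.87 ± 0.11 (adjusted p = 3.3e-05). Of 11 imprinted growth genes 6 fell and 1 rose. Ndn, the growth suppressor necdin, had a median of 25.0 CPM at day 10 (lowest 18.3, highest 28.1), against 40.7, 47.7, 41.3 and 52.6 CPM in the untreated libraries, a log2 change of -0.89 ± 0.12 (adjusted p = 6.33e-05). Igf2, insulin-like growth factor 2, ran from 0 to 1.45 CPM over the 6 day-10 libraries, with a median of 0.147, and was at 15.0, 3.12, 6.73 and 9.19 CPM in the 4 untreated libraries, a log2 change of -4.03 ± 0.84 (adjusted p = 0.00174), or -4.73 without day-10 replicate 6, and was named after its values were seen. Ltbp3, Ndn and Igf2 fell without overlap.

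Transcripts of other blood cells differed between the groups, and their part in the lists above was not tested. Of 25 erythroid markers 13 fell and 2 rose, and their summed level was 1037 to 2296 CPM at day 10, against 3535 to 7769 CPM in untreated libraries. A large part of the day-10 sum was Hbb-bt, a globin gene of uncertain value described below, at 282 to 1441 CPM, against 533 to 1484 CPM in untreated libraries. Hbb-bs, an adult beta-globin (gene 100503605, mm10 chromosome 7, 103826523 to 103827928), had 5.78, 2.68, 2.76, 12.04, 4.04 and 4.60 CPM in day-10 replicates 1 to 6, against 2736, 1001, 1478 and 1457 CPM in untreated replicates 1 to 4. Hba-a1, an alpha-globin, had 0.423, 0, 0.138, 17.04, 0 and 0.606 CPM in day-10 replicates 1 to 6, against 1145, 442, 475 and 584 CPM in untreated replicates 1 to 4. Slc4a1, the red cell anion exchanger, had 0, 0, 0.276, 1.41, 0 and 0 CPM in day-10 replicates 1 to 6, against 202, 168, 2.80 and 160.2 CPM in untreated replicates 1 to 4. Hbb-bs and Hba-a1 were thus at most 12.04 and 17.04 CPM at day 10, highest in replicate 4 for both, and at least 442 CPM in every untreated library, while Slc4a1 was low in untreated replicate 3. The log2 changes were -8.32 ± 0.43 (adjusted p = 1.11e-08), -7.91 ± 0.75 (adjusted p = 3.73e-06) and -8.97 ± 1.06 (adjusted p = 5.45e-05), and those of Hba-a1 and Slc4a1 were -11.34 and -10.88 without day-10 replicate 4. Hba-a2 had a log2 change of -9.56 ± 0.46 (adjusted p = 8.05e-08). Hbb-bt, the near-identical paralogue of Hbb-bs, had 1441, 369, 282, 1136, 447 and 650.3 CPM in day-10 replicates 1 to 6, against 1484, 533, 773 and 623 CPM in untreated replicates 1 to 4 and did not pass (adjusted p = 0.66). Counting can split the reads of so similar a pair, and the value of each is uncertain. Hbb-bt was at 282 to 1441 CPM at day 10, where Hbb-bs and Hba-a1 were at most 12.04 and 17.04 CPM. Why Hbb-bt did not follow them was not tested.

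Alas2, the haem synthesis enzyme of red cells, had a median of 8.58 CPM at day 10 (lowest 7.502, highest 8.85), against 64.9, 36.2, 44.1 and 39.9 CPM in the untreated libraries. Its log2 change of -2.47 ± 0.16 (adjusted p = 9.08e-08) was -9.39 (adjusted p = 1.61e-05) in unique exon reads. Ermap and Ank1, red cell membrane genes, were at 32.04 and 58.8 CPM in day-10 replicate 4 and at most 0.134 and 8.04 CPM in the other 5, against 17.2, 16.9, 1.12 and 15.9 CPM for Ermap and 51.7, 42.9, 6.17 and 21.4 CPM for Ank1 in untreated libraries. Ermap did not pass (adjusted p = 0.443), and Ank1 had a log2 change of -1.06 ± 0.69 (adjusted p = 0.247), or -2.31 (adjusted p = 0.00183) without replicate 4. The 2 erythroid markers that rose were Gata1 and Epor. Gata1, the erythroid and megakaryocyte factor, ran from 8.09 to 41.3 CPM over the 6 day-10 libraries, with a median of 22.6, and was at 5.31, 5.92, 0.187 and 0.431 CPM in the 4 untreated libraries, a log2 change of 3.00 ± 0.61 (adjusted p = 0.00133), and Epor, the erythropoietin receptor, stood at 18.0 CPM in the median of the day-10 libraries, between 16.1 and 19.7, whereas the untreated libraries had 12.6, 12.8, 9.53 and 5.89 CPM, a log2 change of 0.82 ± 0.20 (adjusted p = 0.00471). Both were higher in every day-10 library, and both were named after their values were seen.

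Of 22 macrophage and monocyte markers 8 rose and 0 fell, with a median log2 change of 1.38 and a summed level of 898 to 1541 CPM at day 10, against 799 to 943 CPM in untreated libraries. Cd5l, a macrophage-secreted protein, had a median of 11.6 CPM at day 10 (lowest 6.70, highest 28.6), against 3.28, 1.31, 2.06 and 3.45 CPM in the untreated libraries, a log2 change of 2.43 ± 0.51 (adjusted p = 0.00189). Lgmn, the lysosomal protease legumain, ran from 26.0 to 77.1 CPM over the 6 day-10 libraries, with a median of 42.9, and was at 5.31, 11.01, 7.29 and 4.31 CPM in the 4 untreated libraries, a log2 change of 2.75 ± 0.65 (adjusted p = 0.00384). Itgam, which encodes CD11b and was a lineage check, had 33.0, 47.1, 23.2, 41.3, 14.6 and 16.96 CPM in day-10 replicates 1 to 6, against 9.68, 10.2, 49.3 and 6.32 CPM in untreated replicates 1 to 4 and did not pass (adjusted p = 0.504). Replicates 3 and 4 had the highest list means at day 10, and the 8 calls were 3, 4 and 4 without untreated replicates 1, 3 and 4, 4 and 5 without day-10 replicates 3 and 4, and 13 with the 2 groups alone. The part of macrophage RNA in the other lists was not tested.

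The remaining marker lists gave small counts. Their summed levels at day 10 were 527 to 789 CPM for granulocytes, against 586 to 1527 CPM in untreated libraries, and 423 to 484 CPM for lymphoid cells, against 360.2 to 457 CPM. For mast cells and basophils they were 654 to 1055 CPM at day 10, against 1544 to 1929 CPM in untreated libraries. Kit, the HSC receptor above, was the larger part of that sum in each library, at 500.2 to 755 CPM and 1072 to 1488 CPM. Endothelial markers summed to 2312 to 2933 CPM at day 10, against 2349.7 to 2569 CPM in untreated libraries, and stromal markers to 809 to 1366 CPM, against 553 to 689.5 CPM. A large part of the stromal sum was Col4a1, at 264 to 358 CPM against 115 to 145 CPM, and Col4a2, at 289 to 330 CPM against 130.1 to 190 CPM. Of 8 granulocyte markers tested 2 rose, Prtn3 and Gfi1, and 1 fell. The fall was that of S100a8, a neutrophil protein, with 0.423, 0.536, 0.968, 1.56, 0.123 and 0.727 CPM in day-10 replicates 1 to 6, against 3.59, 2.47, 911 and 2.44 CPM in untreated replicates 1 to 4, and its log2 change of -8.32 ± 1.63 (adjusted p = 0.00104) was -1.97 (adjusted p = 0.0519) without untreated replicate 3. Prtn3, a granule protease, had a log2 change of 0.60 ± 0.14 (adjusted p = 0.00412), Gfi1 one of 0.95 ± 0.32 (adjusted p = 0.0288), and Csf3r, the G-CSF receptor, 340.3 ± 68.1 CPM at day 10 (SD, n = 6) and 271 ± 56.1 CPM in untreated HSCs (n = 4). Csf3r did not pass (adjusted p = 0.102). Gfi1 no longer passed without untreated replicate 2 or 3 (adjusted p = 0.0862 and 0.0944) or day-10 replicate 3 or 5 (adjusted p = 0.0501 and 0.0542), and Csf3r passed without untreated replicate 2 or day-10 replicate 3 or 6 (adjusted p = 0.0298, 0.0485 and 0.0433). Elane, Mpo, Ctsg and Ly6g were too low to be tested. Of 10 lymphoid markers 2 rose (1 without untreated replicate 1 or 2 or day-10 replicate 1 or 4) and 2 fell, the falls being Satb1 (-0.90 ± 0.24, adjusted p = 0.00914) and Cd79b (-0.64 ± 0.13, adjusted p = 0.00167), and Cd3e, Cd8a and Ms4a1 were too low to be tested. Of 5 mast cell and basophil markers 3 fell, which were Kit, Mitf and Slc18a2, the vesicular monoamine transporter (-0.96 ± 0.16, adjusted p = 0.000237). Of 19 endothelial markers 8 rose and 4 fell, led by Esam, an adhesion molecule that HSCs also express (0.59 ± 0.086, adjusted p = 0.000113), and Egfl7 (0.91 ± 0.14, adjusted p = 0.000136). Of 13 stromal and bone markers 4 rose and 1 fell, among them Col4a1, a basement membrane collagen, which stood at 293 CPM in the median of the day-10 libraries, between 264 and 358, whereas the untreated libraries had 145, 131, 128 and 115 CPM, a log2 change of 1.21 ± 0.092 (adjusted p = 4.63e-07).

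The spread among the 6 day-10 libraries was set beside that among the untreated ones. The common biological coefficient of variation, estimated in each group alone, was 0.225 at day 10 (n = 6), 0.182 in untreated HSCs (n = 4) and 0.144 at day 6 (n = 4), and the day-10 value had a jackknife SE of 0.0313 and was 0.193 without replicate 6. Over all genes the median SD of log2 CPM was 0.221 at day 10, or 0.206 without replicate 6, and 0.205 in untreated HSCs. Among 2646 genes at a mean of 100 CPM or more, the median SD of log2 CPM was 0.138 at day 10 and 0.115 in untreated HSCs, and day 10 had the larger SD for 63.2% of them. Among 2919 genes under 10 CPM it was larger for 51.9%. At equal true spread, an SD over 4 libraries tends to be smaller than one over 6. No correction was made for this, so small differences in these SDs and shares cannot be read as a wider spread at day 10. Across genes, which are not independent replicates, the correlation of log2 CPM was 0.953 to 0.973 between day-10 libraries, 0.958 to 0.965 between untreated libraries and 0.892 to 0.943 across the groups.

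A day-10 library stood apart from the other 5, by Dixon's criterion on log2 CPM, for 764 genes (5.93%), and an untreated library from the other 3 for 685 genes (5.32%), where chance flags about 1 in 20. Replicate 6 held 252 of these, followed by replicate 1 with 139, replicate 2 with 136, replicate 3 with 100, replicate 4 with 72 and replicate 5 with 65. Among the genes flagged for replicate 6 were the interferon-induced GTPases above, which were named by this same criterion. Replicate 3 held stromal transcripts, with Cxcl12, the niche chemokine, at 340.0 CPM and Ltbp2, a matrix protein, at 81.8 CPM, where the other day-10 libraries had at most 2.79 and 5.00 CPM and the untreated ones 26.1, 0, 24.5 and 9.91 CPM for Cxcl12 and 8.59, 0.657, 4.11 and 2.44 CPM for Ltbp2. Neither gene passed (adjusted p = 0.325 and 0.183), but without replicate 3 Cxcl12 was lower at day 10, with a log2 change of -2.97 (adjusted p = 0.0267). The stromal list averaged 5.09 log2 CPM in that library and 2.97 to 3.40 in the other 5, against 2.18 to 3.20 in untreated HSCs. Replicate 4 held the red cell membrane transcripts, with an erythroid list mean of 4.16 log2 CPM and 1.82 to 2.29 in the other 5, against 3.41 to 5.73 in untreated HSCs.

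Replicate 1 had the highest Hspa1b and heat shock list values at day 10, though neither met Dixon's criterion. Hspa1b, an inducible HSP70, had 238, 19.7, 14.5, 28.4, 5.51 and 22.3 CPM in day-10 replicates 1 to 6, against 8.27, 20.9, 1.87 and 7.75 CPM in untreated replicates 1 to 4 and did not pass (adjusted p = 0.0634; 0.0492 and 0.0366 without day-10 replicates 3 and 5). The heat shock list averaged 7.75 log2 CPM in replicate 1 and 6.62 to 7.19 in the other day-10 libraries, against 6.07 to 6.68 in untreated HSCs. Sult1a1 was at 156 CPM in replicate 1 and at most 76.1 CPM in the other 5, against 345, 242, 149.5 and 155 CPM in untreated libraries. Gfi1 was at 48.4 CPM in replicate 1 and at least 98.4 CPM elsewhere at day 10, against 96.3, 28.8, 35.9 and 64.5 CPM in untreated libraries. Replicate 5 was alone in Osbpl6, an oxysterol-binding protein gene, at 146 CPM against at most 1.57 CPM in the other 5, and 0.781, 2.14, 1.87 and 3.02 CPM in untreated libraries. In replicate 2, Rad18, a ubiquitin ligase of DNA damage tolerance, was at 21.99 CPM, below the 35.9 to 42.9 CPM of the others, against 26.2, 20.2, 16.4 and 18.5 CPM in untreated libraries.

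**Figure D4:**
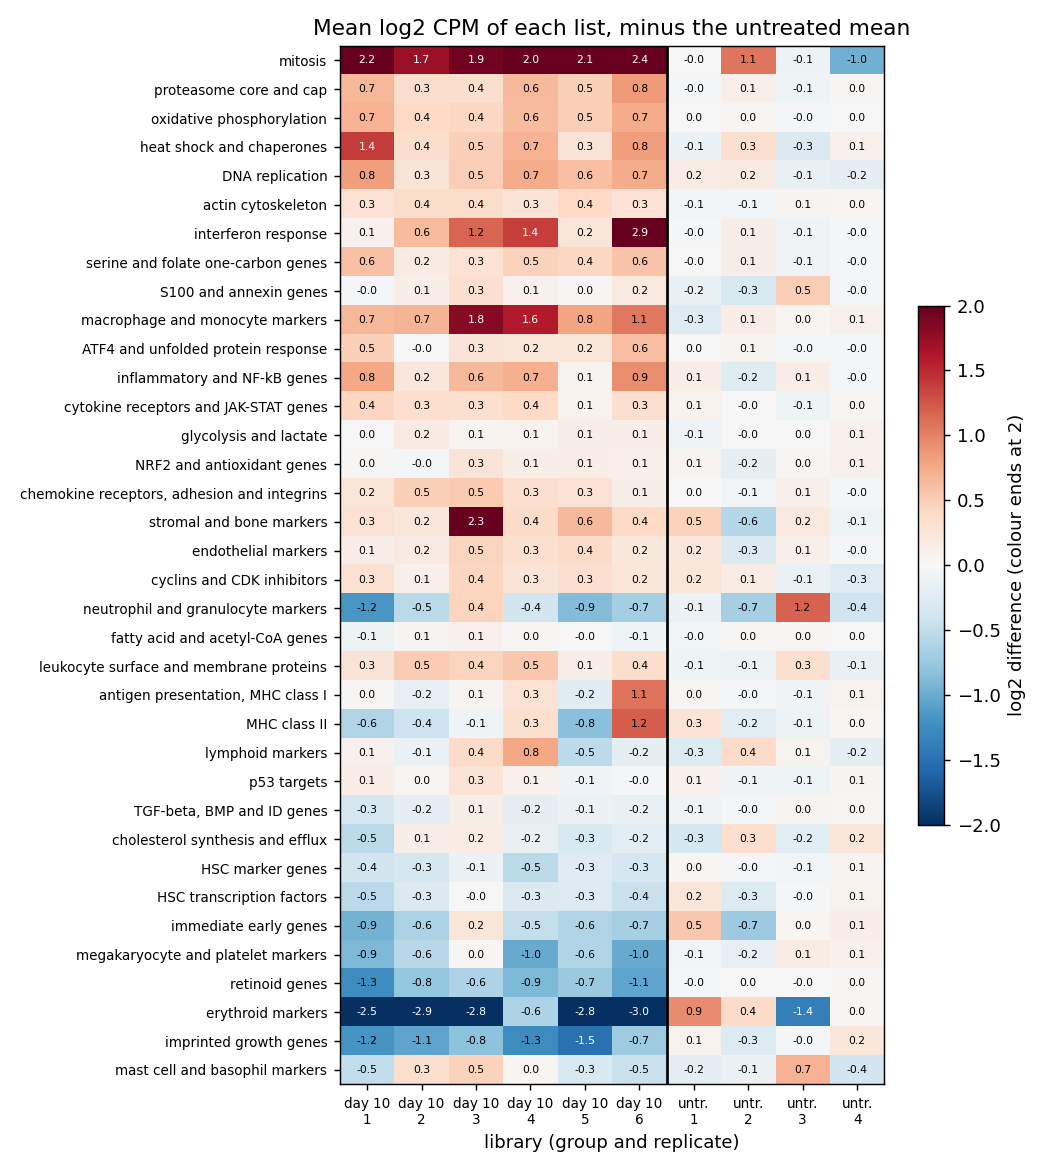
Mean log2 CPM of the tested members of each list in every library, with the mean of the 4 untreated libraries subtracted, day-10 libraries left of untreated ones. The mitosis row is high in all 6 day-10 libraries, whereas the interferon row is high in replicate 6, the stromal row in replicate 3 and the erythroid row is least low in replicate 4.

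Values measured once per library were set against each other with exact permutation tests (two-sided) over the 210 ways to divide 10 libraries into 6 and 4, with 5 tests adjusted together. The intron share of reads was 60.2% ± 1.785 at day 10 (SD, n = 6), 57.6 to 62.1%, and 65.1% ± 1.276 in untreated HSCs (n = 4), 63.7 to 66.7%. All 6 day-10 libraries lay below all 4 untreated ones (p = 0.00476, the smallest possible; adjusted p = 0.0238 by exact permutation). Without untreated replicate 2, 3 or 4 the difference was -5.11, -4.47 and -4.93 points, against -4.997 with all libraries, and the adjusted p was 0.0595, 0.119 and 0.0595 by exact permutation. With 6 against 3 libraries there are 84 divisions, and the smallest p, 0.0119, adjusts to 0.0595 unless another of the 5 tests is as small. The mitochondrial share was 1.771% ± 0.122 at day 10 and 1.615% ± 0.0733 in untreated HSCs (adjusted p = 0.103, exact permutation), or adjusted p = 0.0198 without day-10 replicate 2. Exon reads, genes detected and the share of the 10 most abundant genes had adjusted p = 0.0595, 0.233 and 0.233 by exact permutation.

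A second set of libraries gave the same kind of contrast with no library in common: 4 CD48- HSC libraries of another experiment, also 10 days after 5-FU, against 4 libraries of uncultured HSCs of yet another. Experiment and treatment cannot be told apart in it. There, 2636 of 13468 genes passed (19.6%). Of the 2560 genes higher at day 10 in the main set, 88.0% had the same sign in the second and 932 passed in it, which is 36.4% of the main and 67.7% of the second set's higher calls, while 12 passed the other way. Of the 2333 lower genes 88.1% had the same sign and 807 passed, 34.6% of the main and 64.0% of the second set's lower calls, while 7 passed the other way. The change itself differed between the sets for 107 genes (0.794%) in a test added after the values were seen.

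Several genes named above also passed in the second set, in the same direction. Log2 changes there were 3.16 (adjusted p = 5.56e-10) for Selp, 2.71 (adjusted p = 1.36e-09) for Cd53, 2.97 (adjusted p = 2.08e-06) for Gem, 1.71 (adjusted p = 1.76e-11) for Vim and -1.89 (adjusted p = 3.43e-08) for Art4. Of the mitosis genes 24 of 42 rose in it, against 10.2% of all genes, while 4 of 43 DNA replication genes and 6 of 65 interferon genes did. The interferon list had 0 falls and a median log2 change of 0.37, and 0 of its members passed the test of the difference between the sets. Oas2 (2.09, adjusted p = 0.0012), Ifi27l2a (2.20, adjusted p = 0.00247) and Oas3 (1.22, adjusted p = 0.0468) rose in the second set. Irf7, Gbp2, Gbp5, Igtp, Zbp1 and Ifitm3 did not pass in the second set. Of the retinoid genes 3 of 10, and of the megakaryocyte markers 11 of 25, fell in it, against 9.36% of all genes. The 25 erythroid markers held 0 rises and 0 falls in it by edgeR. Hbb-bs had 2.12, 5.33, 3509 and 0.555 CPM in its day-10 libraries 1 to 4, against 1306, 2.67, 1867 and 8.10 CPM in its uncultured libraries 1 to 4. Its log2 change of 0.14 (adjusted p = 0.954) thus rests on 1 day-10 library and 2 uncultured ones. Cxcl10 had 1.74 (adjusted p = 0.422) and Cd48 0.28 (adjusted p = 0.712). For Hbb-bs the difference between the sets was -8.46 (adjusted p = 0.0505), and for Cd48 2.86 (adjusted p = 0.0604), so neither passed the test of the difference itself.

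**Figure D5:**
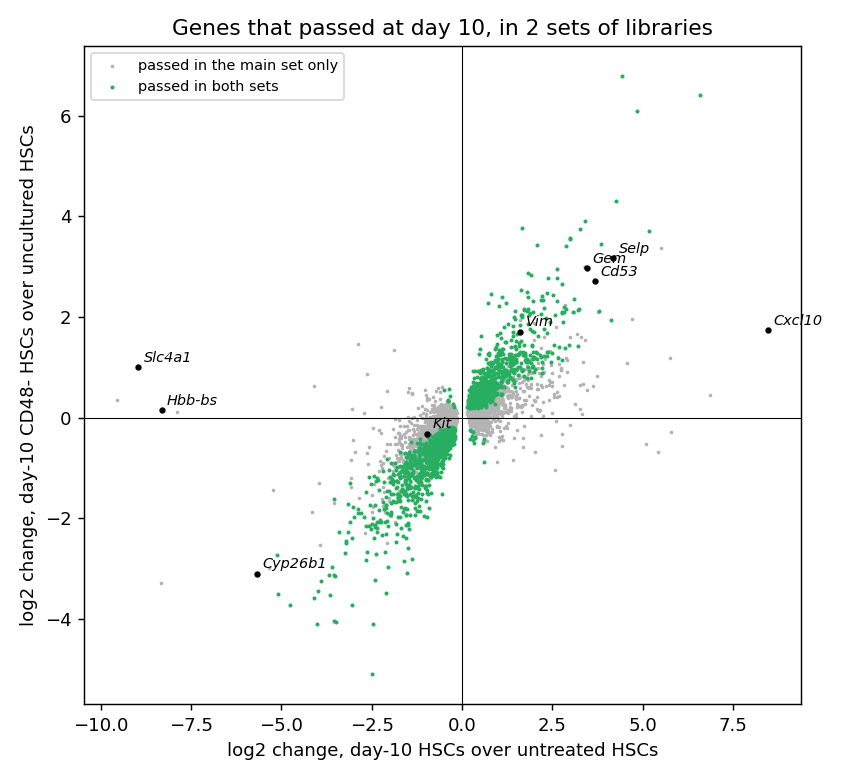
Log2 change of each gene that passed at day 10 in the main set (horizontal) and in the second set of 8 libraries (vertical), with genes that passed in both in green. Selp, Cd53, Gem and Vim are high in both sets and Cyp26b1 low in both, while Hbb-bs, at a log2 change of -8.32 in the main set, is at 0.14 in the second, where 1 of 4 day-10 libraries, at 3509 CPM, carries the day-10 level.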

How the data were processed

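Total RNA of 100 sorted cells per library was converted to double-stranded cDNA, made into Nextera XT libraries and sequenced on a NextSeq, per the labels' protocols and the design text. The deposited values are whole-number counts of exon and intron reads per gene entry, made by the authors on mm10, per the submitters' processing notes; no aligner or counter is named in the sources used here. Of 48737 entries, those with the same gene identifier were summed to 46113 genes, and total exon reads were used. Whether the counting used strand is not given, so overlapping and antisense genes are uncertain.

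Genes were tested with edgeR 4.0.16 (R 4.3.3; filterByExpr, TMM, quasi-likelihood F test, Benjamini-Hochberg adjusted p under 0.05). The 14 libraries of the experiment (6 at day 10, 4 untreated and 4 at day 6 after 5-FU) shared 1 fit. The second set was tested with all 30 libraries in 1 fit. The standard error is the log2 change divided by the square root of F, and log2 CPM used a prior count of 2. The script was tested on simulated data first. Intron share is the intron part of all exon and intron reads of entries with exons. A library was called apart when its gap to the nearest other, over the group's range of log2 CPM, exceeded Dixon's 0.625 (6 libraries) or 0.829 (4 libraries). No pair of libraries within the day-10 or the untreated group agreed within counting noise, so none was a copy of another. Each was treated as a replicate, though this check cannot tell whether libraries came from separate mice.

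The members, the 36 gene lists and the alternatives were chosen with earlier results of these data known. Of 1151 listed symbols 1146 matched the files. Genes named are the 12 largest changes each way that passed without overlap and reached a mean of 32 CPM, 3 genes of each list (the 2 with the smallest p in its main direction and the one with the highest CPM), the genes with the widest spread, the clearest separation or a library far apart, and 10 of the gate or of known interest. Others are said to be named after their values were seen, or for their promoter. Mecom and Itgam are markers from the lists. Some genes that the rule names are not reported here. The alternatives were RLE size factors, DESeq2 1.42.0, unique exon reads, intron reads, no filter, other groups in the fit, a replicate block and libraries left out.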

Additional observations from a re-analysis of the deposited data

Results flagged for a closer look

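A library far from the others of its group was found for the values that follow; chance gives about 1 in 20 groups, and no explanation was weighed. Day-10 replicate 6 was high for Gbp2 (1078 CPM, next 109 CPM), Gbp5 (1088 CPM, next 140.2 CPM) and Igtp (1037 CPM, next 175 CPM), low for Taldo1 (49.7 CPM, next 62.9 CPM), and had 5.741% of its reads in its 10 most abundant genes (next 5.203%). Day-10 replicate 4 was high for Hba-a1 (17.04 CPM), Ermap (32.04 CPM) and Ank1 (58.8 CPM, next 8.04 CPM), and for the erythroid list (mean 4.16 log2 CPM, next 2.29). Day-10 replicate 3 was high for Cxcl12 (340.02 CPM, next 2.79 CPM) and Ltbp2 (81.8 CPM, next 5.00 CPM), and for the stromal list (mean 5.09 log2 CPM, next 3.40). Day-10 replicate 1 was high for Sult1a1 (156 CPM) and low for Gfi1 (48.4 CPM). Day-10 replicate 5 was high for Osbpl6 (146 CPM) and low for the cytokine receptor list (mean 6.02 log2 CPM, next 6.26), and day-10 replicate 2 was low for Rad18 (21.99 CPM).

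Among untreated libraries, replicate 3 was high for S100a8 (911 CPM, next 3.59 CPM) and for the leukocyte surface list (mean 4.30 log2 CPM), and low for Slc4a1 (2.80 CPM) and Ermap (1.12 CPM). Replicate 1 was high for Igtp (105.2 CPM) and Socs3 (26.1 CPM) and low for the fatty acid list (mean 5.91 log2 CPM). Replicate 2 was low for Ltbp3 (247 CPM) and high for Mcm5 (192 CPM), and replicate 4 was high for Eng (721 CPM).

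The log2 change differed between the main and the second set, by edgeR's test of the difference, for 4 of the genes named. The difference was 0.63 for Cfl1 (adjusted p = 0.0159), -0.65 for Kit (0.034), 1.62 for Cenpe (0.0432) and 1.48 for Prtn3 (0.047). Prtn3, which rose in the main set, fell in the second by edgeR, with a log2 change of -0.88 (adjusted p = 0.0159). Cfl1, Kit and Cenpe had the same sign in both sets.

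Day 10 differed from day 6 for 15 of the genes whose day-6 level is given. The log2 difference of day 10 minus day 6 was positive for Selp (1.86), Cd53 (1.501), Plac8 (3.57), Cdk6 (1.38), Oas2 (3.43), Socs3 (3.52), Bcl3 (1.64), Egr1 (1.44) and Fos (1.70). It was negative for Gem (-1.57), Cyp26b1 (-2.40), Rrm1 (-0.85), Mcm5 (-0.81), Tyms (-0.81) and Cish (-1.68).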

How the results depend on the processing

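Over the alternatives that used exon reads, 3639 to 5804 genes passed at day 10, against 4893. RLE size factors shared 4862 of these (99.4%), DESeq2 4818 (98.5%), unique exon reads 4306 (88%) and the 2 groups alone 4115 (84.1%). Leaving out 1 library gave 3997 to 5049, and uncultured HSCs as the reference gave 5804, of which 3667 were shared (74.9%). In intron reads 2446 genes passed, 1244 higher and 1202 lower, of which 1647 were shared (33.7%); the cause was not tested. The second set gave 1646 genes with its 2 groups alone. Correlations of same-numbered deviations between the groups were -0.025, -0.093, 0.088 and -0.012. Those of differently numbered libraries ran from -0.138 to 0.148, so this check cannot decide whether replicate numbers pair the groups. A replicate block left 3639 genes, 3492 shared (71.4%), with 8 falls among HSC transcription factors, 6 rises among one-carbon genes, 11 among ATF4 genes and 5 among cyclins and CDK inhibitors. Replicates 5 and 6 exist only at day 10, so the block fits each of them exactly and they add nothing to its contrast. The block therefore cannot separate the effect of pairing from that of losing those libraries.

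With 1 library left out, the day-10 coefficient of variation was 0.193 to 0.238, the difference in intron share -5.49 to -4.47 points, that in mitochondrial share 0.136 to 0.202 points, and the interferon rises 19 to 49. Those rises were 26 with the 2 groups alone and 23 without day-10 replicates 4 and 6. In intron reads the sign turned for Cfl1 (-0.17), Actb (-1.39), Spi1 (-0.024), Cdk4 (-0.0092), Atp5b (-0.039), Ndufa4 (-0.042), Hspa8 (-0.40), Mecom (0.23) and Hbb-bt (0.98); the cause was not tested. Without day-10 replicates 4 and 6 it turned for Procr (0.0074), Mecom (0.038), Gbp2 (-0.0015) and Cd74 (-0.50). Under the replicate block, to whose contrast day-10 replicates 5 and 6 add nothing, the sign turned for Gbp2 (-0.059) and Osbpl6 (-1.81). Mecom was also above 0 with RLE size factors (0.0050) and DESeq2 (0.0074). With 1 library left out, the signs of Procr (-0.11 to 0.069), Mecom (-0.047 to 0.037), Hbb-bt (-0.56 to 0.16), Cxcl12 (-2.97 to 2.36), Ltbp2 (-0.70 to 2.71) and Osbpl6 (-1.35 to 3.97) were not stable, and none of these 6 passed with all libraries. Of 1976 repeats over 118 named genes, 1870 kept direction and side of the threshold, 54 lost the call, 23 gained it and 29 turned. Genes under about 10 CPM had a median SD of log2 CPM near 0.520 at day 10, so their changes are the least precise.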
